A study of Arabidopsis thaliana with 27 samples.

Results

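The transcripts of Arabidopsis thaliana plants sprayed with BTH were compared with those of plants sprayed with ethephon (ET) at the same time after spraying. The members were chosen by array title, as the 0.5 mM BTH arrays and the 1 mM ET arrays, and amount to 9 of the 27 arrays of the series and 8 of its 24 conditions. They form 4 matched pairs, at 2, 5, 10 and 24 h. There were 5 BTH arrays, of which 2 are repeats of the 5 h sample, and 4 ET arrays.

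The series measured how plants responded to 6 defence-related agents on small spotted cDNA arrays of stress-related genes. The BTH group is Columbia plants, 28 days old, sprayed with 0.5 mM BTH, and the ET group is Columbia plants of the same age sprayed with 1 mM ethephon, so the doses differed. All sprayed plants were kept at high humidity, while no mock spray is mentioned for the untreated plants grown beside them. On every array the RNA of treated plants carried Cy5 and that of untreated plants Cy3, and the dyes were never swapped. A dye effect that is the same on every array cancels in BTH minus ET, but not in the comparison of either agent with untreated plants. Plants were pooled before RNA was extracted, and the repeat arrays used the same RNA, so they measure the array and not the plant. The tissue is labelled as leaves in one place and as the whole plant except the root in another. PYK10, a root gene, was the only tissue marker looked for that had a named spot, so the tissue could not be checked further.

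BTH (benzothiadiazole) is a plant activator that acts as a functional analog of salicylic acid, the hormone behind systemic acquired resistance. Ethephon breaks down in plant tissue and releases ethylene, a gaseous hormone that acts through the transcription factor EIN3 and, often together with jasmonate, turns on another set of defence genes. Salicylate signalling is known to restrain many jasmonate and ethylene responses in Arabidopsis leaves.

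Between 1953 and 2358 spots had a value on each of the 9 arrays. Each value is the log2 of the ratio between treated and untreated plants, with the median spot of each array set to 0, so "higher" and "lower" are relative to that median. Neither the logarithm's base nor its direction is given, and base 2 and treated over untreated were assumed. The deposited array medians ran from -0.50 to 0.61 over the BTH arrays and from -0.19 to 1.20 over the ET arrays. One label of the ET 10 h array gives 5 h, while its title and source say 10 h. Spot by spot, that array correlated with ET at 5 h with r = 0.850 and with ET at 24 h with r = 0.696. Of 416 named genes, 180 had enough values to be tested. With 1 sample per agent and time, the 4 times stood in for replicates, in a limma fit with a mean per agent and a term per time over all 24 conditions. Every mean is given with the standard error (SE) of that fit, and a gene is called at a Benjamini-Hochberg adjusted p under 0.05 over the 180 genes. The p-values rest on the scatter among conditions that this model leaves, part of which may be technical. Whether arrays shared untreated RNA is not stated. Time courses common to all agents are taken up by the time terms, and without those terms 9 genes were called in place of the 43 given next.

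BTH and ET were separated by 43 of the 180 genes (23.9%). Of these, 12 were higher under BTH than under ET (6.67%) and 31 were lower (17.2%). Of the largest differences above 0, 2 belonged to genes of unknown function. The others belonged to a cell wall protein (ECS1), a xenobiotic glucosyltransferase (GT72B1) and 2 cold-responsive genes (KIN2 and COR15A). The largest below 0 belonged to a jasmonate-induced oxygenase (AT5G05600), a BTB/POZ domain protein gene (AT2G30600) and a beta-glucosidase gene (BGLU44). The smallest absolute difference among the called genes was 0.68, and a 95% interval reached a median of 0.60 to either side of its difference. The sign was the same at every measured time for 38 of the 43. The 4 BTH values did not overlap the ET values for 21 of the 43, against 26 of all 180 tested genes (14.4%). When each time was left out in turn, and when the ET 10 h array was, 19 of the 43 kept their call throughout, 6 higher and 13 lower under BTH. The 6 are ECS1, AT2G25510, KIN2, COR15A, GT72B1 and AT3G29240, and the 13 are AT5G05600, AT2G30600, BGLU44, AT1G61180, AT5G64120, AT2G25450, AT5G16880, AT2G39980, AT2G39400, CYP71B28, AT4G18030, FDH and TUA5. The other 24 missed the threshold at least once, 21 of them without the 10 h conditions and 10 without the ET 10 h array. In RNA of pooled plants, fewer cells of a type and less RNA per cell cannot be told apart.

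The split between higher and lower depended on how arrays were centred. It was 6 higher and 28 lower with the deposited values, 19 and 26 after quantile normalization, and 13 and 34 with arrays scaled to 1 median absolute deviation. Centring on TUA5, an alpha-tubulin gene with 54 spots, gave 96 higher and 1 lower, and moved the median difference of all tested genes from -0.13 to 0.94. TUA5 itself was lower under BTH than under ET by -0.995 ± 0.23 (SE, 4 matched times; adjusted p = 0.00429). It was at -1.22, -1.15, -1.03 and -2.04 at 2, 5, 10 and 24 h under BTH, and at 0.04, -0.56, -0.28 and -0.66 under ET. Every BTH value lay below every ET value. Leaving TUA5 aside, 27 of the 43 were called under all 3 other scalings, 5 of them higher and 22 lower. With TUA5 centring counted as well, 6 remained: ECS1, AT2G25510, KIN2, GT72B1, AT3G29240 and AT5G05600. Of the 31 genes lower under BTH, all but AT5G05600 lost their call when arrays were centred on TUA5.

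**Figure D1:**
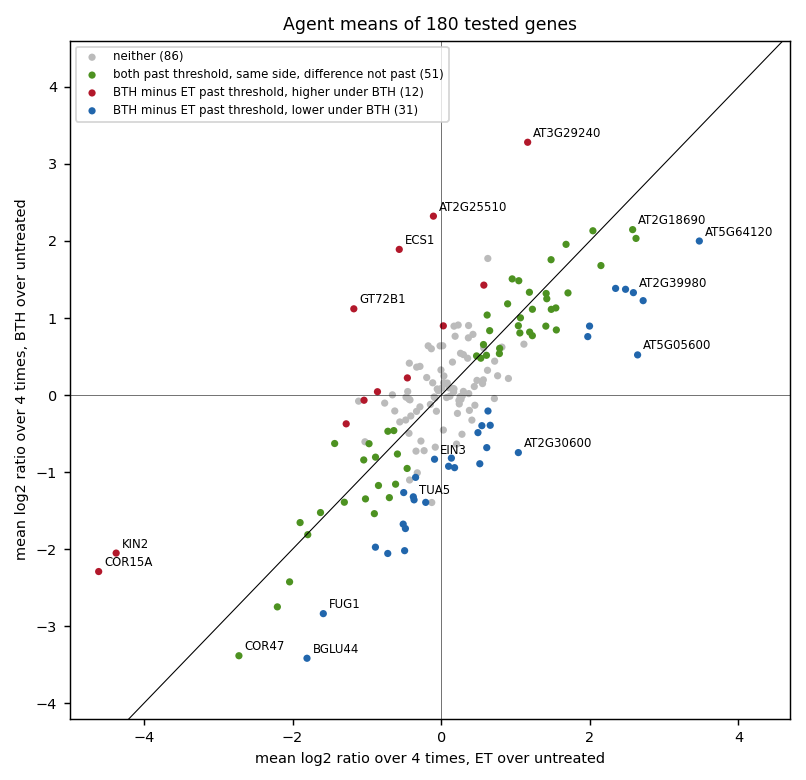
Mean log2 ratio over 4 times under BTH (vertical axis) against ET (horizontal axis), each treated over untreated, for 180 tested genes; the diagonal marks equal means. ECS1 and GT72B1 lie above 0 under BTH and below 0 under ET, KIN2 and COR15A lie below 0 under both and above the diagonal, and AT5G64120, with 3.47 under ET, lies farthest right.

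The salicylate list held 3 genes with a spot. Of these, 2 were tested and 1 was called, against 23.9% called over all tested genes. The called gene was ECS1, which encodes a cell wall protein. ECS1 was at 1.32, 1.27, 2.17 and 2.80 at 2, 5, 10 and 24 h under BTH, and at -2.21, -1.03, -0.23 and 1.21 under ET. All BTH values lay above all ET values, and both courses reached their highest value at 24 h. Its mean was 1.89 ± 0.24 under BTH (adjusted p = 4.21e-07) and -0.56 ± 0.24 under ET (adjusted p = 0.0459), a difference of 2.46 ± 0.33 (adjusted p = 2.84e-05). The ET mean is the less settled of the pair, since it stood at 0.08 with the deposited values. On the repeat BTH arrays at 5 h, ECS1 read 1.28 and 1.26. AT2G18690, the other tested gene of the list, was higher than in untreated plants under both agents, as described with the genes that agree. WRKY53, a senescence and defence transcription factor, had too few conditions for the test. Under a wider filter, described below with KIN1, its means were 0.06 under BTH and -0.37 under ET, neither past the threshold. Its difference of 0.44 ± 0.25 did not pass either (adjusted p = 0.22). The classic salicylate and ethylene markers PR1, PR2, PR5, PR3 and PR4 were not analysed here.

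GT72B1 encodes a UDP-glucosyltransferase known for conjugating foreign chemicals such as chlorinated phenols. Under BTH it read 1.5, 1.12, 0.93 and 0.93 at 2, 5, 10 and 24 h, and under ET -1.13, -1.94, -0.86 and -0.77. Every BTH value was above 0 and every ET value below 0. The means were 1.12 ± 0.34 under BTH (adjusted p = 0.00677) and -1.18 ± 0.34 under ET (adjusted p = 0.00561), and the difference was 2.30 ± 0.48 (adjusted p = 0.00227). GT72B1 was the only called gene among the 4 tested of 11 UDP-glycosyltransferase genes with spots, against 23.9% called over all tested genes. The other 3 were UGT72E1, UGT73B1 and UGT85A2, with differences of 0.29, 0.69 and -0.51. The wider filter described below tested 4 more of the 11 and called none, against 18.2% called of all genes that only this filter admits. UGT72E1, an enzyme that glucosylates monolignols, was called higher than in untreated plants under both agents, with 1.18 under BTH and 0.89 under ET.

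Another 2 genes with large differences have no described function that could be given here. AT2G25510 was at 1.99, 1.57, 2.60 and 3.13 under BTH, and at -1.72, -0.97, 1.17 and 1.10 under ET, at 2, 5, 10 and 24 h. The BTH values all lay above the ET values, which were below 0 at 2 and 5 h and above 0 at 10 and 24 h. Singly, the repeat BTH arrays at 5 h read 2.16 and 0.97, and the second lay below ET at 10 and 24 h. Its difference was 2.43 ± 0.35 (adjusted p = 4.54e-05). AT3G29240 was at 3.46, 3.82, 2.90 and 2.96 under BTH, and at 0.43, 0.27, 2.02 and 1.94 under ET. It was above 0 at every time under both agents and higher under BTH at each, with the narrower gaps at 10 and 24 h. Its mean was 3.28 ± 0.29 under BTH, the highest BTH mean of the 180 genes, and 1.16 ± 0.29 under ET, a difference of 2.12 ± 0.42 (adjusted p = 0.0013).

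**Figure D2:**
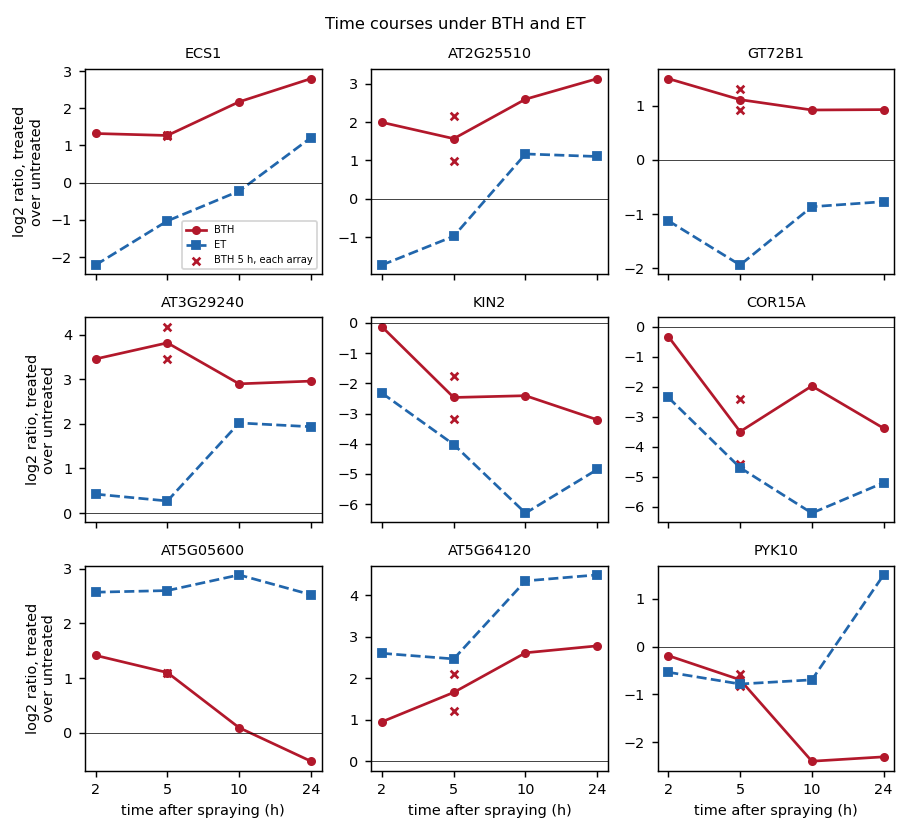
Log2 ratio of treated over untreated plants against time after spraying for 9 genes, BTH as filled circles with a solid line and ET as squares with a dashed line; crosses are the repeat BTH arrays at 5 h. ECS1, AT2G25510, GT72B1 and AT3G29240 are higher under BTH at every time, AT5G05600 is lower at every time, and PYK10 parts from 10 h on.

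Of the 4 tested cold and dehydration genes, KIN2, COR15A and COR47 were below untreated plants under both agents, and KIN2 and COR15A were less far below under BTH. These genes encode small hydrophilic proteins that build up in the cold or on drying. The list held 6 genes with spots, and the median difference of its 4 tested members was 1.37, against -0.13 over all 180 tested genes. KIN2 was at -0.12, -2.47, -2.41 and -3.21 at 2, 5, 10 and 24 h under BTH, and at -2.32, -4.03, -6.30 and -4.85 under ET. The BTH value was the higher at each time, although the groups overlap, since the ET value at 2 h lay above the BTH values at 5, 10 and 24 h. The means were -2.05 ± 0.30 under BTH and -4.38 ± 0.30 under ET, and the difference was 2.32 ± 0.42 (adjusted p = 0.000633).

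COR15A, which encodes a chloroplast protein that protects membranes on freezing, was at -0.33, -3.49, -1.97 and -3.38 under BTH, and at -2.35, -4.69, -6.20 and -5.19 under ET. Its difference was 2.32 ± 0.51 (adjusted p = 0.0031). The gap was widest at 10 h, with 4.23, as it was for KIN2, with 3.89. At 5 h the repeat BTH arrays read -4.56 and -2.42 for COR15A and -3.18 and -1.76 for KIN2, so the array alone moved these genes by more than 1. The COR15A call was lost after quantile normalization, with 1.68 (adjusted p = 0.0688). COR47, a dehydrin gene, was not called and lay on the other side of 0. It was at -2.06, -2.94, -3.58 and -4.96 under BTH and at -1.16, -2.45, -3.50 and -3.79 under ET, with a difference of -0.66 ± 0.31 (adjusted p = 0.119). RD2, the fourth tested member, had means of -0.21 under BTH (adjusted p = 0.42) and -0.63 under ET (adjusted p = 0.0132), and differed by 0.42 ± 0.29 (adjusted p = 0.342).

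A wider filter, with values in at least 3 matched pairs and no rule on the other agents, let 2 more of these genes be fitted. It called 18.2% of all genes that only it admits. KIN1, a neighbour of KIN2 in sequence, was at -1.64, -2.85, -3.99 and -4.10 under BTH and at -2.78, -3.90, -6.44 and -4.97 under ET. It was higher under BTH at each time, by 1.38 ± 0.34 on average (adjusted p = 0.00806). COR15B was at -4.92 under BTH and -5.48 under ET on average, and its difference of 0.57 ± 0.31 did not pass (adjusted p = 0.217). KIN1 and KIN2, and COR15A and COR15B, are near copies of each other, and how far their spots share RNA was not assessed.

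The remaining genes higher under BTH differed by less than 1. PSAE-1 encodes a subunit of photosystem I. It was at 0.96, 0.05, -1.21 and -0.07 under BTH and at -0.43, -1.10, -2.49 and -0.14 under ET, a difference of 0.97 ± 0.25 (adjusted p = 0.00574). Both courses had their lowest value at 10 h, and the agents met at 24 h. AT4G16190, a papain-type cysteine protease gene, also differed at 2 and 5 h, by 1.61 and 1.38, more than at 24 h, by 0.09. AT3G52800, which encodes a zinc finger protein of the A20/AN1 type linked to stress, was at 0.76, 0.58, 1.37 and 0.88 under BTH and at 0.37, 0.05, 0.31 and -0.62 under ET. Its groups did not overlap, and its difference was 0.87 ± 0.31 (adjusted p = 0.0407). Singly, its repeat BTH arrays at 5 h read 0.30 and 0.85, and the first lay below ET at 2 h. AT4G02220, a MYND zinc finger protein gene, was above 0 on every array, with means of 1.43 under BTH and 0.57 under ET. AT3G51000, an alpha/beta hydrolase gene, had the smallest difference, at 0.68 ± 0.22 (adjusted p = 0.0291). ZW9, a gene with TRAF-like domains, was the exception in sign, with 2.37 at 2 h and -0.09 at 5 h. These 6 genes were not called with the deposited values.

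**Figure D3:**
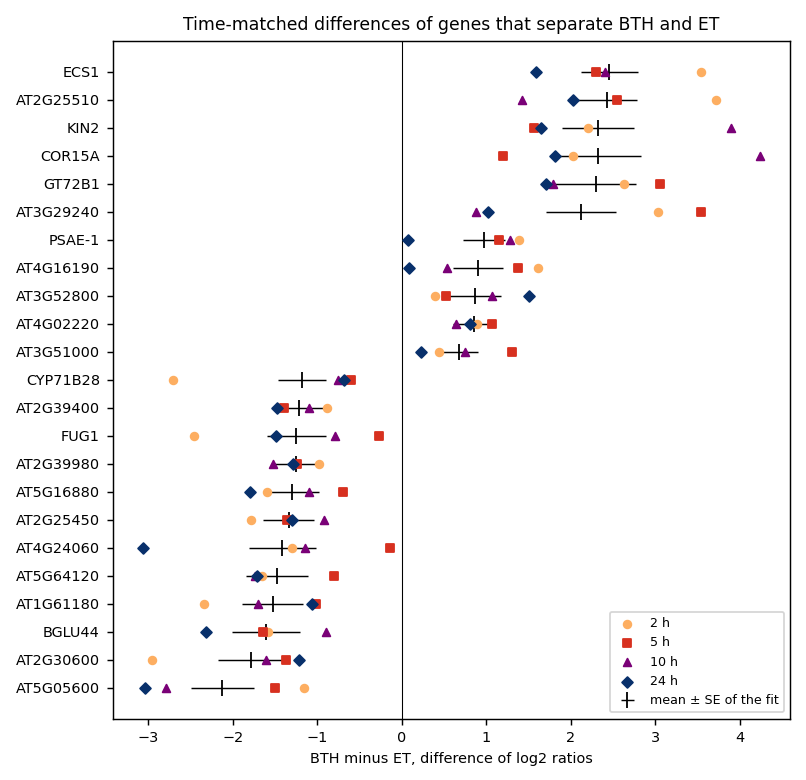
BTH minus ET in log2 ratio at each of 4 times (symbols) with the mean and SE of the fit (black), for 11 genes higher and 12 genes lower under BTH, all called and with 1 sign at every measured time. ECS1, AT2G25510, KIN2, COR15A, GT72B1 and AT3G29240 have means above 2, and CYP71B28 has a 2 h value of -2.71 apart from its other times.

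Of 8 jasmonate genes with spots, 6 were tested, 2 were lower under BTH and none was higher, against 17.2% lower over all tested genes. Their median difference was -0.34, against -0.13 over all. AT5G05600 encodes an oxygenase that is induced by jasmonate and inactivates it by hydroxylation. It was at 1.41, 1.10, 0.09 and -0.52 at 2, 5, 10 and 24 h under BTH, and at 2.57, 2.60, 2.88 and 2.52 under ET. All ET values exceeded all BTH values, and BTH minus ET was -1.15 at 2 h and -3.04 at 24 h. The mean was 0.52 ± 0.26 under BTH (adjusted p = 0.0908) and 2.64 ± 0.26 under ET (adjusted p = 1.38e-08), and the difference was -2.12 ± 0.37 (adjusted p = 0.000504). High values were not particular to ET. AT5G05600 also averaged 2.84 under salicylic acid (SA), 2.45 under INA, 2.57 under BABA and 3.62 under jasmonate (JA), which were not tested here. AT1G52000, a jacalin lectin gene, was the other, with -1.98 under BTH, -0.89 under ET and a difference of -1.09 ± 0.36 (adjusted p = 0.0305). FAMT and AT3G28220 of the same list were on 1 side under both agents, and AT1G66100, a thionin gene, had a difference of 1.03 ± 0.51 (adjusted p = 0.142). VSP2 and LOX2 were not analysed here.

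EIN3, the transcription factor at the centre of ethylene signalling, was at -0.80, -1.06, -0.64 and -0.83 under BTH, and at -0.41, 0.01, -0.05 and 0.08 under ET. The BTH values all lay below the ET values. Its mean was -0.83 ± 0.18 under BTH (adjusted p = 0.000305) and -0.09 ± 0.18 under ET (adjusted p = 0.687), and the difference was -0.74 ± 0.25 (adjusted p = 0.0305). The call is a narrow one: it was lost with the deposited values, with -1.07 (adjusted p = 0.114), and after quantile normalization, with -0.71 (adjusted p = 0.0553). AT5G61590, an ethylene response factor gene and the only other tested member of the ethylene list, differed by -0.09 ± 0.22. PDF1.2, the defensin marker of joint ethylene and jasmonate signalling, had 1 matched pair. At 5 h it was at -0.13 under BTH and 2.78 under ET, and it was at 0.28, 3.45 and 2.57 at 2, 10 and 24 h under ET, with no BTH value at those times. THI2.1, a thionin gene of the jasmonate pathway, was below 0 at every time under both agents and its difference of 0.38 ± 0.27 under the wider filter did not pass (adjusted p = 0.338).

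Class III peroxidases use hydrogen peroxide in the cell wall. Of 33 such genes with spots, 4 were tested and 1 was called, against 23.9% called over all tested genes. The called gene was AT5G64120. It was at 0.95, 1.66, 2.61 and 2.78 under BTH, and at 2.60, 2.46, 4.34 and 4.49 under ET, at 2, 5, 10 and 24 h. Both courses stood highest at 24 h, and ET was the higher at each time. Its mean of 3.47 ± 0.26 under ET was the highest ET mean of the 180 genes, beside 2.00 ± 0.26 under BTH, and the difference was -1.47 ± 0.37 (adjusted p = 0.00497). AT4G37520 was high under both agents, and AT1G44970 and AT2G37130 differed by 0.66 and -0.60 without passing. The wider filter tested 7 more peroxidase genes and called Prx37 and AT5G39580, both lower under BTH. Of all genes that only this filter admits, 18.2% were called.

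Beta-glucosidases and jacalin lectins, some of which belong to the endoplasmic reticulum bodies that store defence enzymes, were lower under BTH in 3 of 5 tested cases, against 17.2% over all tested genes. Their median difference was -1.09, against -0.13 over all. The wider filter tested 5 more of them and called none, against 18.2% called of all genes that only this filter admits. BGLU44 was at -4.04, -2.49, -3.22 and -3.93 under BTH and at -2.45, -0.84, -2.32 and -1.61 under ET. It was below 0 on every array, and every BTH value lay below every ET value. That holds with the repeat BTH arrays at 5 h averaged. Singly they read -2.36 and -2.61, and the first lay above ET at 2 h. The difference was -1.61 ± 0.40 (adjusted p = 0.00502). BGLU33 was at -1.92, -0.85, -0.99 and 0.06 under BTH and between 0.04 and 0.19 at the 4 times under ET, so the agents met at 24 h. AT1G52000, given above, was the third. PYK10 and BGLU22 differed by -1.27 ± 0.51 (adjusted p = 0.066) and -0.48 ± 0.25 (adjusted p = 0.163). AT2G25450, which encodes the enzyme that hydroxylates butenyl glucosinolate, was at -2.84, -1.69, -1.20 and -2.50 under BTH and at -1.06, -0.33, -0.28 and -1.20 under ET. Its difference was -1.34 ± 0.30 (adjusted p = 0.00346).

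Of 10 genes for proteins with TIR or NB-ARC domains, the building blocks of intracellular immune receptors, 6 were tested and 2 were called, both lower under BTH, against 17.2% lower over all tested genes. The wider filter described above tested 4 more and called AT1G72840 in the other direction, higher under BTH by 1.04 ± 0.31 (adjusted p = 0.0273). Of all genes that only this filter admits, 18.2% were called. AT1G61180 was at -2.52, -1.67, -2.07 and -1.82 under BTH and at -0.18, -0.66, -0.37 and -0.76 under ET. The groups did not overlap, and the difference was -1.53 ± 0.36 (adjusted p = 0.00429). AT3G44670 was at -2.76, -0.50, -1.73 and -1.93 under BTH and at 0.16, -0.59, -0.58 and -0.91 under ET, so at 5 h the agents differed by 0.09. Its call (-1.25 ± 0.40, adjusted p = 0.0265) was lost without the 2 h conditions, with -0.70 (adjusted p = 0.288). At 5 h its repeat BTH arrays read -1.49 and 0.48.

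Of the 31 genes lower under BTH, 7 were above untreated plants under both agents and less far above under BTH. FDH encodes formate dehydrogenase, a mitochondrial enzyme. It was at 0.85, 1.54, 1.95 and 1.15 under BTH and at 1.36, 2.64, 3.09 and 2.83 under ET, a difference of -1.11 ± 0.26 (adjusted p = 0.00429). The gap was -0.51 at 2 h and -1.68 at 24 h. FDH was the only called gene of 6 tested for amino acid catabolism and pyruvate metabolism, against 23.9% called and 17.2% lower over all tested genes. MCCA, PPDK and AlaAT1 were higher than in untreated plants under both agents. The wider filter described above tested 3 more of this list and called MCCB, against 18.2% called of all genes that only this filter admits. Unlike MCCA, MCCB was below untreated plants under both agents, with means of -1.23 under BTH and -0.39 under ET. Its difference was -0.84 ± 0.22 (adjusted p = 0.0106). AT5G14120, a nodulin-like membrane transporter gene, had means of 1.38 under BTH and 2.35 under ET. AT2G39980, an acyltransferase gene of the HXXXD family, was at 0.92, 1.49, 1.07 and 1.83 under BTH and at 1.91, 2.73, 2.59 and 3.12 under ET. Its groups did not overlap, with a difference of -1.26 ± 0.29 (adjusted p = 0.00355). AT2G39400, a hydrolase gene, likewise had every BTH value (0.34 to 1.08) below every ET value (1.82 to 2.18). AT4G36850, a PQ-loop membrane protein gene, was at 1.47, 2.07, 1.06 and 0.30 under BTH and at 3.49, 1.96, 3.45 and 1.98 under ET. Its difference of -1.49 ± 0.47 (adjusted p = 0.0244) was lost without the ET 10 h array, with -1.15 (adjusted p = 0.0941). AT3G22750, a protein kinase gene, completes the 7 genes of this kind, of which AT5G64120 was given above, with means of 0.90 under BTH and 2.00 under ET.

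Another 6 called genes were below untreated plants under both agents and lower still under BTH: BGLU44, AT1G52000 and AT2G25450, given above, with FUG1, AT4G18030 and AT4G14360. FUG1 encodes a translation initiation factor of chloroplasts. It was at -3.94, -2.45, -2.68 and -2.28 under BTH and at -1.47, -2.19, -1.90 and -0.79 under ET, and the difference was -1.25 ± 0.35 (adjusted p = 0.0111). Without the 2 h conditions it was -0.85 (adjusted p = 0.169). AT4G18030 and AT4G14360 encode proteins with methyltransferase domains and differed by -1.16 ± 0.26 and -0.76 ± 0.25.

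A further 11 genes passed the threshold below untreated plants under BTH but not under ET. EIN3, BGLU33, TUA5, AT1G61180 and AT3G44670 are among them. Means below 0 were not particular to BTH. Under SA, INA and BABA, in that order, AT1G61180 averaged -1.64, -1.31 and -1.86, and AT3G44670 -1.84, -1.04 and -1.43. BGLU33 averaged -1.31, -0.63 and -0.95, TUA5 -1.16, -0.88 and -0.26, and EIN3 -0.32, -0.22 and -0.28. These means were not tested here. CYP71B28, a cytochrome P450 gene, was at -3.23, -0.87, -0.83 and -0.65 under BTH and at -0.52, -0.28, -0.08 and 0.04 under ET, a difference of -1.18 ± 0.28 (adjusted p = 0.00429). THFS, which encodes the formyltetrahydrofolate synthetase of one-carbon metabolism, was at -1.35, -0.71, -0.64 and -0.57 under BTH and at -0.41, 0.01, 0.86 and 0.08 under ET, a difference of -0.96 ± 0.24 (adjusted p = 0.00478). In both genes every BTH value lay below every ET value, with the repeat arrays at 5 h averaged. For CYP71B28 these arrays read -1.41 and -0.34, and the second lay above ET at 2 h. AT4G24060, a Dof transcription factor gene, differed by -0.14 at 5 h and -3.06 at 24 h, and its call was lost without the 24 h conditions, with -0.86 (adjusted p = 0.141). The others were AT1G73110, AT2G29360 and AT2G29670, with differences of -0.95, -0.72 and -1.12. Passing under one agent and missing under the other is not itself a difference, but for these genes BTH minus ET passed as well.

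Of BTH and ET, only ET passed the threshold above untreated plants for another 4 of the lower genes: AT5G05600, AT4G04670, AT1G12930 and AT5G37350. Among the 12 genes higher under BTH, 2 were above untreated plants under both agents (AT3G29240 and AT4G02220), and 2 were below under both (KIN2 and COR15A). Of BTH and ET, only BTH passed for AT2G25510 and AT3G52800, both above untreated plants. For PSAE-1, AT4G16190, AT3G51000 and ZW9 ET passed and BTH did not, with ET means below untreated plants.

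On opposite sides of untreated plants lay 5 genes (2.78% of the 180), with BTH and ET both past the threshold. With the replicate number as a block the count was 1, and with the deposited values it was 0. ECS1 and GT72B1 were above untreated plants under BTH and below under ET. The reverse held for AT2G30600, AT5G16880 and scpl48. AT2G30600 was at -0.14, -0.08, -1.30 and -1.47 under BTH and at 2.81, 1.30, 0.30 and -0.26 under ET, at 2, 5, 10 and 24 h. Both courses were lowest at 24 h, from different starting levels at 2 h, and the difference was -1.79 ± 0.39 (adjusted p = 0.0031). AT5G16880, which encodes a VHS-domain protein of vesicle sorting, was at -1.68, -0.30, 0.21 and -0.95 under BTH and at -0.09, 0.39, 1.30 and 0.85 under ET. Its difference was -1.30 ± 0.31 (adjusted p = 0.00429). The serine carboxypeptidase-like gene scpl48 was below 0 at every time under BTH and above 0 at every time under ET, with means of -0.49 and 0.49 (SE 0.19 each) and a difference of -0.98 ± 0.27 (adjusted p = 0.00929). It missed the threshold without the 10 h conditions, with -0.88 (adjusted p = 0.097), and without the 24 h conditions, with -0.82 (adjusted p = 0.0623).

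Many genes stood on the same side of untreated plants under both agents. Against untreated plants, 108 genes were called under BTH (60.0%, 57 higher and 51 lower) and 97 under ET (53.9%, 58 higher and 39 lower). Agreement was taken as both agents past the threshold on 1 side with BTH minus ET not past it, which held for 51 genes (28.3%), 31 of them higher and 20 lower than in untreated plants. A difference that misses the threshold does not show that the agents act alike. The 95% interval of the difference lay within -1 and 1 for 29 of the 51 (16.1% of the 180), and for the other 22 these data leave room for a difference of more than 2-fold. These counts changed with the scaling. With the deposited values 60 of 87 called genes were higher under BTH and 90 of 101 under ET, and with TUA5 centring 145 of 154 under BTH and 68 of 86 under ET. Of the genes that agree, 3 had their interval within -1 and 1 with the deposited values and 12 with TUA5 centring. With TUA5 centring 43 genes agreed while 97 separated the agents, and with array weights 52 agreed while 56 separated them. With the replicate number as a block, 100 genes were called under BTH and 71 under ET, and 40 agreed. Both values are read against untreated plants, so an effect shared by all arrays, of spraying, humidity or dye, would appear here as agreement, and its part was not tested.

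AT2G18690, a gene of unknown function, and PPDK, which encodes pyruvate orthophosphate dikinase, led the genes that agreed above untreated plants. AT2G18690 was at 1.72, 1.38, 2.79 and 2.71 under BTH and at 2.02, 2.04, 3.61 and 2.64 under ET. PPDK was at 1.21, 1.76, 2.47 and 2.69 under BTH and at 2.75, 2.30, 3.01 and 2.43 under ET. The 2 agents overlapped for both genes, and the 95% interval of the difference was -1.16 to 0.30 for AT2G18690 and -1.28 to 0.10 for PPDK. AT2G41410, a calmodulin-like gene, came closest to equal values among the 10 highest genes that agree. It was at 1.61, 2.47, 1.88 and 2.58 under BTH and at 1.44, 2.54, 2.06 and 2.13 under ET, with a difference of 0.09 ± 0.28 and an interval of -0.50 to 0.68.

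AT4G27450 and YLS5, both known from stressed or ageing leaves, were at 0.71 and 0.18 at 2 h under BTH and at 1.02 and 0.50 at 2 h under ET, and were higher at each later time under both agents. AT5G48540, which encodes a secreted protein with cysteine-rich repeats, was instead highest at 2 h and lowest at 10 h under both agents. It was at 2.53, 1.15, 1.08 and 2.27 under BTH and at 2.37, 1.51, 0.35 and 1.68 under ET. AT2G39210 (nodulin-like transporter family), AT4G37520 (a peroxidase) and AT1G66180 (an aspartyl protease-like gene) had means of 1.68, 1.33 and 1.32 under BTH and of 2.15, 1.71 and 1.41 under ET. The curculin-like lectin genes AT1G78830 and AT1G78850, the 2 tested of 3 with spots, both agreed, against 28.3% over all tested genes. AT1G78830 was at 1.63, 1.60, 1.53 and 0.24 under BTH and at 1.91, 2.05, 1.70 and 0.03 under ET, so under both agents it was near 0 at 24 h.

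**Figure D4:**
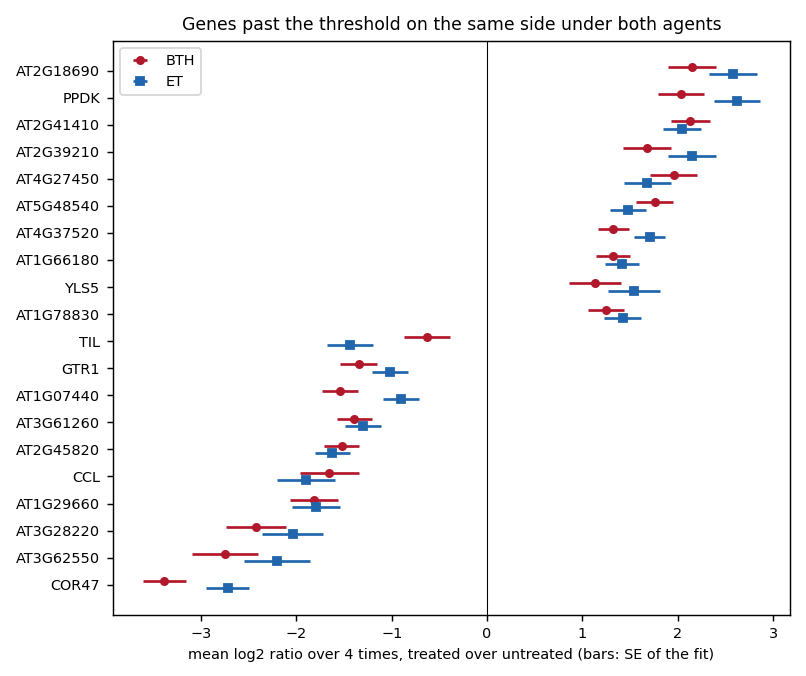
Mean log2 ratio over 4 times under BTH (circles) and ET (squares), treated over untreated, with the SE of the fit, for the 10 highest and 10 lowest genes that are past the threshold on the same side under both agents with BTH minus ET not past it. COR47 is lowest, with -3.38 under BTH and -2.72 under ET.

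Below untreated plants, COR47 led the genes that agreed, followed by AT3G62550, which encodes a protein of the universal stress family. AT3G62550 was at -3.77, -1.54, -1.68 and -4.02 under BTH and at -2.26, -0.61, -3.01 and -2.94 under ET. CCL, a clock-related gene, was at -2.97, -0.54, -0.59 and -2.53 under BTH and at -2.93, -0.63, -1.76 and -2.27 under ET. Both genes were lower at 2 and 24 h than at 5 h under either agent. AT3G62550 and CCL belong to a list of genes that respond to sugar starvation and darkness. Of this list 5 were tested, 3 agreed and 1 (AT4G36850) was lower under BTH. Over all tested genes, 28.3% agreed and 17.2% were lower under BTH.

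Remorins are proteins of plasma membrane patches, and both remorin genes with spots agreed, against 28.3% over all tested genes. AT3G61260 was at -0.59, -1.20, -1.67 and -2.10 under BTH and at -0.47, -1.30, -1.70 and -1.74 under ET. AT2G45820 was at -0.94, -1.89, -1.95 and -1.32 under BTH and at -1.14, -2.04, -2.38 and -0.95 under ET. Their intervals were -0.63 to 0.46 and -0.44 to 0.64, so a difference of more than 1 lies outside both. AT1G29660, a GDSL lipase gene, had means of -1.81 under BTH and -1.80 under ET, with an interval of -0.75 to 0.72. GTR1, which encodes a glucosinolate transporter, had means of -1.35 under BTH and -1.02 under ET. AT3G28220, a TRAF-like gene of the jasmonate list, was at -2.43 and AT1G07440, a tropinone reductase-like gene, at -1.54 under BTH, against -2.04 and -0.90 under ET. TIL, a temperature-induced lipocalin gene, met the rule for agreement although its difference was 0.81 ± 0.34 (adjusted p = 0.0779). Its 95% interval, 0.10 to 1.51, left out 0. So did those of COR47 (-1.31 to -0.02) and AT1G07440 (-1.19 to -0.09), both lower under BTH at each time. Only the adjustment for the number of genes kept these 3 among the genes that agree.

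Time by time, without a test, 53 of 179 genes differed by more than 1 at 2 h (29.6%), 39 of 180 at 5 h (21.7%), 41 of 180 at 10 h (22.8%) and 45 of 179 at 24 h (25.1%). Between the repeat arrays of BTH at 5 h, 16 of 176 genes differed by that much (9.09%), with r = 0.838 over spots and an SD of the difference of 0.63 over genes. At 2 h, 22 genes were above 1 (12.3%) and 31 below -1 (17.3%). At 5 h these were 22 (12.2%) and 17 (9.44%), at 10 h 15 (8.33%) and 26 (14.4%), and at 24 h 9 (5.03%) and 36 (20.1%). The median difference was -0.13, -0.07, -0.15 and -0.24 at these times.

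No gene passed the test of whether BTH minus ET differed between the late (10 and 24 h) and the early times (2 and 5 h) in the limma fit. At an unadjusted p under 0.05 there were 5, and the smallest adjusted p was 0.306. Without the ET 10 h array the late minus early value was -4.07 for PYK10. The late ET mean then rested on the 24 h array alone. PYK10, which encodes a beta-glucosidase of endoplasmic reticulum bodies, was at -0.19, -0.69, -2.40 and -2.30 under BTH and at -0.54, -0.78, -0.69 and 1.5 under ET. The agents differed by 0.35 and 0.09 at 2 and 5 h, and by -1.70 at 10 h and -3.81 at 24 h. AT3G29240 had its larger gaps early, as given above. AT5G44020, an acid phosphatase family gene, differed by 2.09 and 1.25 at 2 and 5 h and by -0.19 and 0.22 at 10 and 24 h. In the other direction, AT5G35735 differed by -1.17, -0.63, 0.44 and 1.10 at 2, 5, 10 and 24 h. AT2G46600, a calcium-binding protein gene, differed by -0.67, -1.07, 0.45 and 0.11. AT1G69840, a membrane protein gene linked to the hypersensitive reaction, differed by -0.24, -0.25, 0.51 and 0.72.

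With the wider filter, 323 genes were tested and 69 were called (21.4%). The 143 genes that only this filter admits gave 26 calls (18.2%), 13 in each direction. These 26 calls were not tried with other centrings or scalings, or with conditions left out. Of the 43 calls given first, 24 were lost when conditions were left out, so how well the 26 would hold is not known. AT1G12010, of the family of ACC oxidases that make ethylene, was at -1.02, -0.63, -0.89 and -0.37 under BTH and at 1.15, 2.05, 0.68 and 1.38 under ET. Every BTH value was below 0 and every ET value above 0, and the difference was -2.04 ± 0.27 (adjusted p = 5.28e-05). Prx37, a peroxidase gene, was at -0.65, -0.42, 0.18 and 0.25 under BTH and at 0.58, 2.49, 3.28 and 2.82 under ET, a difference of -2.46 ± 0.40 (adjusted p = 0.00107). AT5G39580, another peroxidase gene, was at 0.48, 0.93 and -0.08 at 2, 5 and 10 h under BTH and at 1.74, 2.62 and 1.82 under ET.

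XTH19, which encodes an enzyme that cuts and rejoins xyloglucan in the cell wall, was between 0.70 and 0.92 at 3 times under BTH and between 1.84 and 3.29 at 4 times under ET, a difference of -1.94 ± 0.42 (adjusted p = 0.00418). OSM34, an osmotin-like gene, was at 0.14, 0.13 and 0.16 at 5, 10 and 24 h under BTH and at 0.71, 1.62 and 2.32 under ET. It also read 0.01 at 2 h under BTH and had no value at 2 h under ET. CYP71B22, a cytochrome P450 gene, had means of 0.28 under BTH and 1.97 under ET. AT1G30700, which encodes an oxidase like berberine bridge enzyme, had means of 0.02 under BTH and 1.39 under ET. None of these 4 genes passed against untreated plants under BTH, and all 4 did under ET. The other 6 of the 13 differed by -1.12 (AT5G08500) to -0.67 (AT5G02540).

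Among the 13 genes higher under BTH, AT3G02480, which encodes a late embryogenesis abundant protein, was at 0.24, -1.51, 0.56 and 0.47 under BTH and at -1.44, -2.83, -2.70 and -1.59 under ET. Its difference was 2.08 ± 0.41 (adjusted p = 0.00433). AT3G04000, an aldehyde reductase gene, was at 1.63, 1.81 and 2.21 at 2, 5 and 10 h under BTH and at -0.08, 0.49 and 0.19 under ET, with no value at 24 h for either. AT1G26320, of the alkenal reductase family, was above 0 at every time under BTH and below 0 at every time under ET, with a difference of 0.92 ± 0.22 (adjusted p = 0.00668). AT5G61820 was likewise above 0 at every time under BTH and below 0 at every time under ET, by 1.63 ± 0.34 (adjusted p = 0.0039). KIN1 and AT4G30650, a small membrane protein gene of the kind induced in the cold, were far below 0 under both agents, with means of -3.14 and -3.42 under BTH and of -4.52 and -4.44 under ET. The remaining 7 ranged from 0.71 (CCR2) to 1.92 (AT1G76600).

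**Figure D5:**
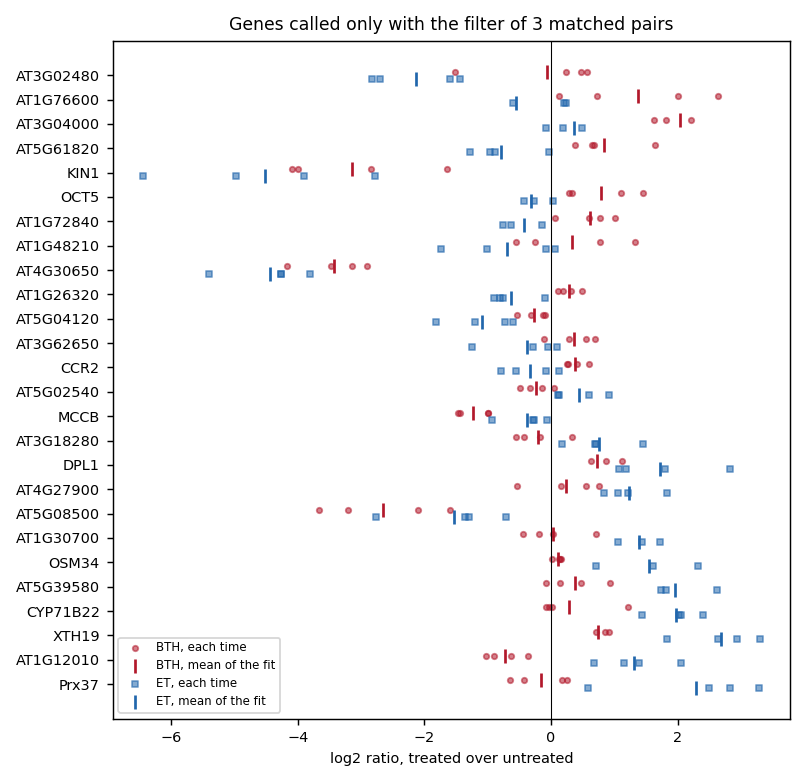
Log2 ratio of treated over untreated plants at each time (small symbols) and the mean of the fit (bars) under BTH and ET for the 26 genes called only with the filter of 3 matched pairs. Prx37, AT1G12010, XTH19 and CYP71B22 lie near or below 1 under BTH and mostly above 1 under ET; AT3G02480 is lower under ET.

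Among the 15 pairs that 6 agents allow, fitted the same way, BTH and ET were separated by 43 genes. SA minus INA gave 12, INA minus BABA gave 32 and JA minus ET gave 38. The other 11 pairs gave from 61 to 105. These counts come from 1 fit and share its spread, and the differences between counts were not tested.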

How the data were processed

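Transcripts were measured on 2-colour cDNA arrays with 2560 spots. Slides were scanned with a ScanArray Lite and spots summarised by median pixel intensity, per the labels' protocols. The authors deposited 1 log ratio per spot, read here as log2. How they corrected background, filtered spots or normalized was not recorded in the labels or headers. No intensities were used, so signal over background is unknown, and precision is limited by how few arrays there are.

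Spots were named from the platform annotation (884 named, 1676 unnamed), with 415 of 416 genes matched to RefSeq TAIR10.1. The deposited medians lay beyond 0.2 from 0 on 23 arrays, so each array was centred on its median. Spots of a gene and repeat arrays were then averaged. A gene was tested with values in at least 20 of 24 conditions and 3 of 4 times per agent (180 genes, 137 complete). R 4.3.3 and limma 3.58.1 fitted agent means plus time terms over all 24 conditions (prior 8.16 and, for complete genes, 15 residual degrees of freedom). P-values are two-sided. Late minus early used a mean per agent and phase.

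Named genes were the 12 highest and 12 lowest called differences with 1 sign at every measured time (11 of the higher qualified), the 10 highest and 10 lowest that agree, those on opposite sides, the 3 smallest p-values each way for late minus early, and called list members. Other genes were chosen after their values were seen. The comparison and the lists were chosen with earlier results of these data known. The peroxidase, glycosyltransferase, TIR and NB-ARC, beta-glucosidase, remorin and other family lists were drawn up after the array's gene names were seen. Lists were described by counts only. Lists defined by words in gene descriptions could not be applied.

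Replicate numbers were checked through array 1 minus array 2 of the same RNA. These deviations correlated with r = 0.533 (BTH 5 h with INA 10 h), 0.438 (BTH 5 h with INA 24 h) and 0.583 (INA 10 h with INA 24 h), while ET has only arrays numbered 1. The fit was tested on simulated data. The alternatives tried were other centrings and scalings, filters, spots, repeat arrays, time terms, variance models, array weights and conditions left out.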

Additional observations from a re-analysis of the deposited data

Results flagged for a closer look

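For each of the 57 named genes, the 4 time-matched differences were checked for 1 value far from the rest, and 2 genes had one. Chance alone gives such a value in about 1 of 20 genes. CYP71B28 differed by -2.71 at 2 h, while its other differences lay between -0.75 and -0.60. AT5G64120 differed by -0.81 at 5 h, while its others lay between -1.73 and -1.65.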

How the results depend on the processing

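BTH minus ET called 97 genes when arrays were centred on TUA5, 69 with the filter of 3 matched pairs and 9 with no time term, against 43. TUA5 centring moves every difference by construction, and the filter tests more genes. Without a time term, time courses common to all agents stay in the scatter, and the median difference remained -0.13. How much of the drop this makes up was not tested. Leaving out each time in turn gave 23 (without 10 h) to 38 genes, and leaving out the ET 10 h array gave 36. The paired fit of the 8 BTH and ET conditions alone called 38, of which 35 are among the 43. With the replicate block, 45 were called for BTH minus ET. That block has ET arrays of number 1 only, and it moved the genes on opposite sides from 5 to 1. Against untreated plants, the filter of 3 matched pairs gave 171 genes for BTH and 172 for ET, with 85 that agree. The opposite sides held 0 genes with the deposited values, 3 with the first spot of a gene, 3 with arrays numbered 1 only, 1 with no time term, 1 to 2 with a time left out, 2 without the ET 10 h array and 3 without the 24 h conditions of BTH and ET. The last of these settings was chosen after seeing the data. Late minus early without the ET 10 h array had only the 24 h array as late ET value. It is given above for PYK10 as an effect size only.

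Over 114 values, all but 1 of them of named genes, 2349 alternatives were run. Of these, 2150 stayed on their side of the threshold, 167 fell short of it and 18 newly passed it. The other 14 changed sign with the value past the threshold before or after. Changes of sign between values that both missed the threshold are among the 2150 and were not counted apart. The 1 value not of a named gene is the percent of features called. Its only alternative, the fit spot by spot, is also among the 2150, though no threshold applies to it. Of the 14, the ET mean of ECS1 became 0.0769 with the deposited values, which keep the array medians that centring sets to 0. The others followed from the shift by TUA5 centring. The difference became 0.97 for AT1G66180, 0.89 for AT1G78830, 0.98 for AT3G61260, 0.041 for BGLU33, 0.32 for EIN3, 0.0828 for scpl48, 0.10 for AT5G14120 and 0.0702 for TUA5. The BTH mean became 0.62 for AT2G30600, 0.88 for scpl48, 0.0232 for GTR1, 0.69 for AT5G16880 and 0.74 for TIL.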

Other observations

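Fitted spot by spot, a choice made after seeing the data, 362 of 1257 tested spots separated BTH from ET (28.8%). Of these, 238 were among the 872 tested spots that have no gene name here (27.3% of them), 101 higher and 137 lower under BTH.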
